A study of Mus musculus with 11 samples.

Results

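Rgs5 was described here together with 3 other genes of its family, Rgs2, Rgs4 and Rgs16, and with 4 genes that mark pericytes, Pdgfrb, Cspg4, Kcnj8 and Abcc9. The members were all probe sets on the array whose annotation gives 1 of these 8 symbols and no other. There were 22 such probe sets among the 45101 on the array. Rgs5 was chosen because its medial excess at E10.5 was the largest of all genes tested, so it was selected on those values, and they are a description without a test. The next genes in that order were Alx1 at 4.75 and Cavin2 at 3.64 log2, against 5.36 for Rgs5. The other 7 genes were named as relatives of Rgs5 or as markers of the cell type it is known for.

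RNA came from the mandibular arch, the embryonic swelling that forms the lower jaw and part of the tongue, of mice of the outbred strain ICR. No embryo carried a transgene or received a treatment per the labels. The arch was cut into a medial piece, at the distal end where the lateral lingual swellings meet, and the lateral remainder. Medial tissue was hybridised at E9.7 (1 array), E10.5 (3 arrays), E11.5 (2 arrays) and E14.5 (1 array), and lateral tissue at E9.7 (1 array) and E10.5 (3 arrays). The number after E is the embryonic day. The E14.5 piece is labelled as tongue and as the medial or anterior 2/3, so it is a different dissection from the earlier ones. Each time point was a pool of RNA from 40 embryos, and nothing in the labels says that arrays of a group came from separate pools. The p-values therefore measure the spread between arrays, which may be technical. Replicate 1 of medial E10.5 and replicate 1 of medial E11.5 had deposited medians of 2.37 to 2.47 log2, against 5.20 to 5.73 on the other 9. All values below are log2 signals after quantile normalization over the 11 arrays unless another scale is named. The median of all values was 4.86, and a level under that mark is dim and its differences are uncertain in size.

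RGS proteins speed the hydrolysis of GTP by G protein alpha subunits of the Gi and Gq classes and so shorten signalling from receptors that couple to them. Pericytes are mural cells wrapped around small vessels, and smooth muscle cells cover larger ones. Rgs5 is widely used as a marker of pericytes. Pdgfrb encodes the PDGF receptor through which endothelial cells recruit pericytes, and Cspg4 encodes the NG2 proteoglycan on their surface. Kcnj8 encodes the pore and Abcc9 the sulfonylurea receptor of the ATP-sensitive potassium channel of mural cells. Rgs2, Rgs4 and Rgs16 are small RGS proteins of the same subfamily as Rgs5. In whole tissue, fewer cells of a type and less RNA per cell cannot be told apart.

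Rgs5 and Rgs4 are next to each other on mouse chromosome 1, and Kcnj8 and Abcc9 are next to each other on chromosome 6, in the gene order of the RefSeq table. The bases before the start sites of these 4 genes are shown because Rgs5 and Rgs4 shared a medial excess at E10.5 and a lower level at E11.5, while Kcnj8 and Abcc9 were both higher at E11.5. They were read from RefSeq promoters of build GRCm38.p6, which matched 7 of the 8 members. Each run is the 250 bases before the start site, 5′ to 3′ on the strand of the gene, and capitals mark motif matches on either strand. The motifs searched were the E-box CANNTG, which basic helix-loop-helix factors such as the Hand proteins bind, the GATA motif as AGATAA or TGATAA, the TATA box as TATAAA, and CCAAT.
Rgs5, chr1:169655251-169655500, plus strand: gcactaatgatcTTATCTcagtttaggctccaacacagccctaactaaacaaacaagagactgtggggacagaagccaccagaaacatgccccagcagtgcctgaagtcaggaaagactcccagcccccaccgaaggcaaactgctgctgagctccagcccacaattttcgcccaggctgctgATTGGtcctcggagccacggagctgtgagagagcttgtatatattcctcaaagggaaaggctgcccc
Rgs4, chr1:169747643-169747892, minus strand: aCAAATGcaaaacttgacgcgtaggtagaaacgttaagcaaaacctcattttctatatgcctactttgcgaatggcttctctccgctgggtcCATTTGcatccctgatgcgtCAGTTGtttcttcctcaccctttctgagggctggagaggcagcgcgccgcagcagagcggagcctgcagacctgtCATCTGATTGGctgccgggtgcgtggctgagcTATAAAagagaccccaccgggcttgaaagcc
Kcnj8, chr6:142571615-142571864, minus strand: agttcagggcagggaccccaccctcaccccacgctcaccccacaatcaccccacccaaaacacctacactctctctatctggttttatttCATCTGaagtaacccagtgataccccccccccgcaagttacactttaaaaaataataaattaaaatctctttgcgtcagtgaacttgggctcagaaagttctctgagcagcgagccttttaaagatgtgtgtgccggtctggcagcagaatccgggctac
Abcc9, chr6:142702275-142702524, minus strand: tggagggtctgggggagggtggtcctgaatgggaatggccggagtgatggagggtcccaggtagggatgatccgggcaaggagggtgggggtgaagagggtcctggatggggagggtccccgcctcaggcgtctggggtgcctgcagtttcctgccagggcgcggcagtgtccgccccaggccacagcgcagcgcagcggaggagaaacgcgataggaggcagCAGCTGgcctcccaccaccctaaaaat

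The Rgs5 window held 1 GATA match at -238 and 1 CCAAT match at -67, both read on the opposite strand, and no E-box. The Rgs4 window held 4 E-boxes, at -249, -158, -138 and -63, with a CCAAT match at -57 on the opposite strand and a TATA match at -31. Only CCAAT was found in both. The E-box at -63 and the CCAAT match at -57 of Rgs4 touch without overlapping. The Kcnj8 window held 1 E-box, at -160, and so did that of Abcc9, at -27. Among 32817 RefSeq promoters of the same length, 66.2% held an E-box, 33.8% CCAAT, 16.6% the GATA motif and 12.4% TATAAA, so each match is common. A match is a description of these letters and not a binding site.

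On its main probe set (1417466_at, the brightest of 4) Rgs5 was bright in every medial piece and dim in every lateral piece. In medial tissue it read 7.99 at E9.7, then 9.20, 9.10 and 9.51 on the 3 arrays at E10.5. It read 6.71 and 6.50 on the 2 arrays at E11.5 and 7.26 at E14.5. In lateral tissue it read 3.66 at E9.7 and 3.64, 4.02 and 4.08 at E10.5. The 7 medial arrays did not overlap with the 4 lateral ones, and all lateral readings were under the 4.86 mark. From high to low the group means ran medial E10.5 (9.27), medial E9.7, medial E14.5, medial E11.5 (6.60), lateral E10.5 (3.91) and lateral E9.7, and only the last neighbours in that order overlapped.

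The medial excess of Rgs5 at E10.5 was 5.36 ± 0.16 log2 (SE; 3 arrays a side), or 41-fold, and served to choose it. At E9.7, on 1 array a side and so without a test, it was 4.32 log2, or 20-fold. Rgs4, Rgs16, Kcnj8 and Abcc9 read under 4.86 on both arrays there and could not be counted. Of the other members, Rgs5 alone was at least 2-fold apart, as were 1.76% of the 11252 genes that reached that mark. From E9.7 to E10.5 medial Rgs5 stood 1.28 log2 higher. It was then 2.67 ± 0.18 log2 lower at E11.5 than at E10.5. That second difference uses the same medial E10.5 arrays that chose the gene and is given without a test.

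**Figure D1:**
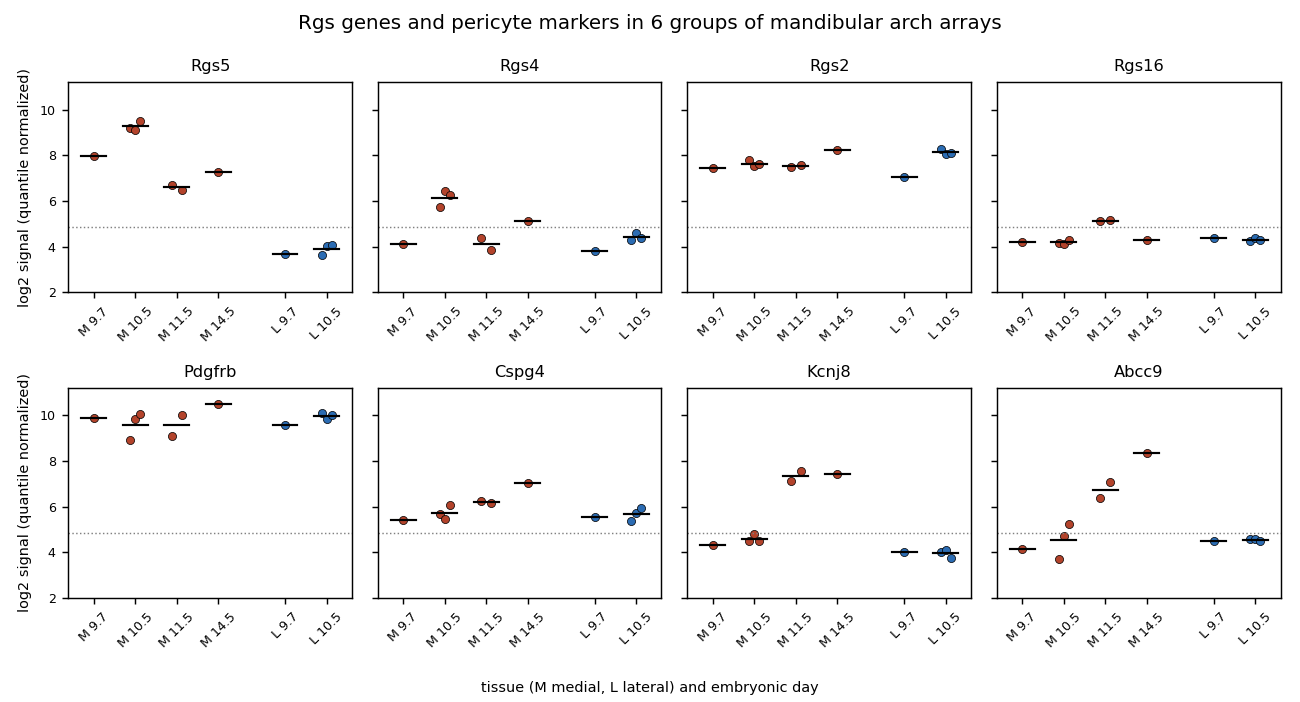
Quantile-normalized log2 signal (vertical axis) of the probe set that represents each of the 8 genes, by tissue and embryonic day (horizontal axis; medial red, lateral blue). Points are arrays, bars are group means and the dotted line is the 4.86 mark. Rgs5 has its highest readings on the medial E10.5 arrays and is under the mark in all lateral arrays, while Kcnj8 and Abcc9 have their highest readings at E11.5 and E14.5.

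All 4 Rgs5 probe sets had medial E10.5 as their highest group and were higher there than in lateral tissue. Probe set 1420941_at read 7.76, 7.67 and 7.51 in medial and 3.89, 3.50 and 3.80 in lateral tissue at E10.5, a difference of 3.92 log2. For 1420942_s_at the difference was 3.68 log2. For 1420940_x_at, the dimmest, it was 1.38 log2. The endings _s_at and _x_at mark probe sets that may detect more than 1 transcript. The drop to E11.5 was seen with all 4 as well, by 2.54, 2.90 and 1.41 log2 for the 3 others in the same order. At E14.5 they parted: 1417466_at was 0.66 log2 above E11.5, while 1420941_at was 1.1 log2 below it and reached 4.01, near its lateral readings of 3.50 to 3.89. The size and direction of the last step of Rgs5 therefore depend on the probe set.

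**Figure D2:**
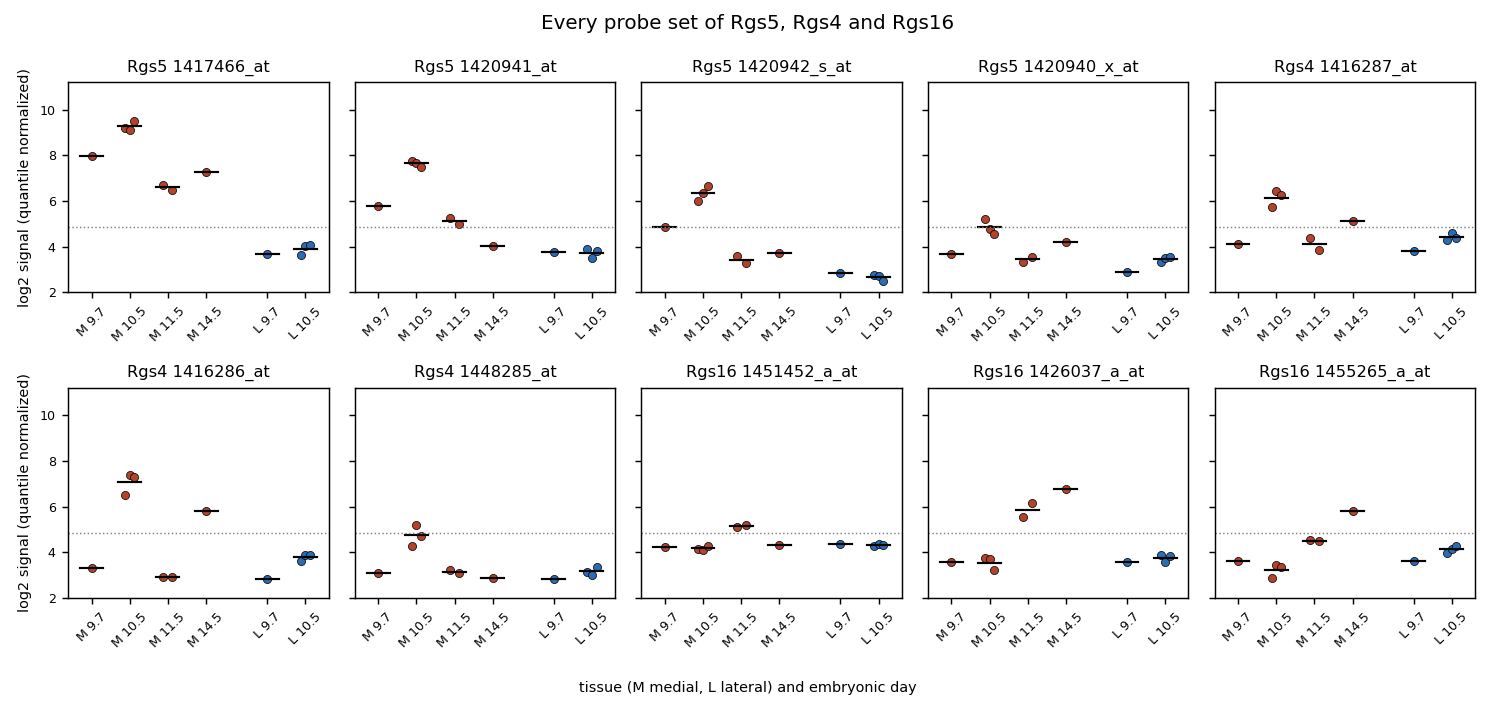
Quantile-normalized log2 signal (vertical axis) of every probe set of Rgs5, Rgs4 and Rgs16 by tissue and embryonic day (horizontal axis; medial red, lateral blue), with points for arrays, bars for group means and a dotted line at 4.86. Medial E10.5 is the highest group for all probe sets of Rgs5 and Rgs4, and at E14.5 the probe sets of Rgs5 and of Rgs16 move in different directions.

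Among the relatives, Rgs4, the neighbour of Rgs5 on the chromosome, was also higher in medial tissue at E10.5, and Rgs2 was lower. Across all 11968 genes tested, 4.63% passed an adjusted p of 0.05 in this comparison, 2.82% higher and 1.8% lower. Of the 7 members other than Rgs5, 2 passed, 1 in each direction. Only genes at or above 4.86 on 2 of the 8 arrays of groups with replicates were tested. Rgs4 entered through its 3 medial E10.5 arrays alone, and Kcnj8 and Rgs16 through the 2 of medial E11.5 alone, so each was tested only because of the group in which it reads highest. These counts of 7 therefore support nothing by themselves. Rgs4 read 5.72, 6.45 and 6.25 in medial and 4.28, 4.58 and 4.39 in lateral tissue, and all lateral readings were dim. The arrays did not overlap, as for 25% of genes tested. The difference was 1.72 ± 0.21 log2, or 3.3-fold (limma, adjusted p = 0.00176), and it passed in each fit that left out 1 array (adjusted p 0.000714 to 0.0113). With every gene tested, dim or not, its adjusted p was 0.00161. A second probe set, 1416286_at, gave a larger one, 3.26 ± 0.22 log2 (adjusted p = 0.000154 in a fit over 24339 probe sets, of which 2.96% passed).

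Rgs2 ran the other way. Its main probe set, 1419247_at, read 7.78, 7.52 and 7.63 in medial and 8.27, 8.07 and 8.10 in lateral tissue at E10.5. Arrays did not overlap, as for 25% of genes tested, and the difference was -0.50 ± 0.11 log2 (limma, adjusted p = 0.0412). That call was narrow: it was lost in 5 of the 6 fits that left out 1 array, with adjusted p = 0.163 and 0.0963 without medial replicates 2 and 3, and 0.147, 0.122 and 0.144 without lateral replicates 1, 2 and 3. Probe set 1419248_at gave -0.74 ± 0.14 log2, and 1447830_s_at, which spread from 5.88 to 7.62 over the medial arrays, gave -0.01 log2.

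At E9.7 the order of Rgs2 was the reverse, 7.43 in medial and 7.05 in lateral tissue, on single arrays. Lateral Rgs2 was 1.1 log2 higher at E10.5 than at E9.7, with each E10.5 array at least 2-fold above the E9.7 one. On their main probe sets Rgs5, Rgs4, Rgs16, Kcnj8 and Abcc9 were under 4.86 on all lateral arrays and could not be counted. Of the other members, Rgs2 alone was counted in lateral tissue, as were 1.34% of 11805 genes. Medial Rgs2 differed by 0.22 log2 over the same interval.

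Rgs16 was dim on all 6 arrays of E10.5, at 4.16, 4.10 and 4.29 in medial and 4.26, 4.37 and 4.31 in lateral tissue. The groups overlapped, with a difference of -0.13 ± 0.10 log2 (limma, adjusted p = 0.584). Averaged over its 3 probe sets the difference was -0.41 log2 and passed (adjusted p = 0.048).

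None of the 4 pericyte markers passed between the tissues at E10.5, where Rgs5 had its medial excess. Pdgfrb was bright in both tissues, at 8.91, 9.83 and 10.04 in medial and 10.09, 9.85 and 10.01 in lateral tissue, a difference of -0.39 ± 0.31 log2 (limma, adjusted p = 0.589). The lowest of these readings is from an array with a low deposited median. Cspg4 read 5.68, 5.45 and 6.07 in medial and 5.38, 5.71 and 5.92 in lateral tissue, with overlap and a difference of 0.07 ± 0.19 log2 (adjusted p = 0.898).

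Kcnj8 was dim at E10.5 and Abcc9 lay around the mark. Kcnj8 read 4.47, 4.79 and 4.49 in medial and 4.01, 4.10 and 3.75 in lateral tissue, all under 4.86. Its arrays did not overlap, as for 25% of genes tested, the difference was 0.63 ± 0.16 log2, and it missed the threshold (limma, adjusted p = 0.0667). Kcnj8 passed in some other fits, with adjusted p = 0.0185 when the replicate number was a block and 0.0128 when the control-signal group of the arrays was a term. Abcc9 read 3.70, 4.72 and 5.24 in medial and 4.58, 4.57 and 4.47 in lateral tissue, with a difference of 0.02 ± 0.35 log2 (adjusted p = 0.987). On the medial E10.5 arrays, where Rgs5 was at its highest, Kcnj8 was thus under the mark on 3 of 3 arrays. Abcc9 was under it on 2 of 3 by its main probe set, but above it on 2 of 3 by 1435751_at, which read 5.17, 4.49 and 5.06.

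**Figure D3:**
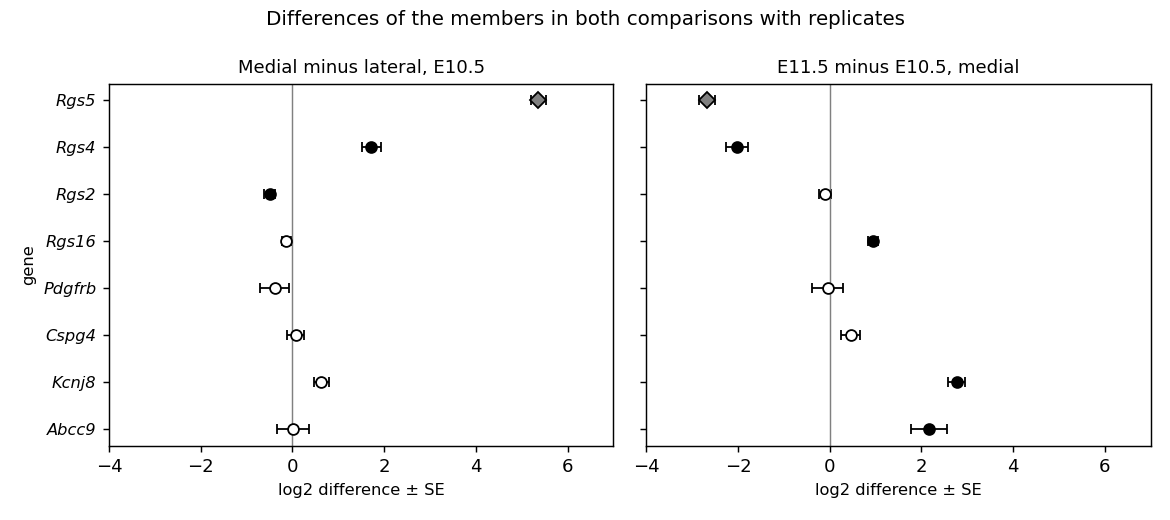
Log2 difference (horizontal axis, with bars for its standard error) of each of the 8 genes (vertical axis) between medial and lateral tissue at E10.5 (left) and between medial E11.5 and medial E10.5 (right). Filled circles passed an adjusted p of 0.05, open circles did not, and the grey diamond is Rgs5, which was not tested. Kcnj8 and Abcc9 lie at 2.77 and 2.17 on the right, where Rgs5 lies at -2.67.

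From E10.5 to E11.5 Rgs4 fell in medial tissue, where Rgs5 was also lower, and both channel genes and Rgs16 rose. Of the 7 genes besides Rgs5, 4 passed, 3 higher and 1 lower, against 6.92% of all genes tested (4.32% higher, 2.6% lower). As above, Rgs4, Kcnj8 and Rgs16 were tested only through the group in which they read highest. With every gene tested, their adjusted p was 0.000726, 2.81e-05 and 0.00175, and that of Abcc9 was 0.00968. This comparison shares the 3 medial E10.5 arrays with the one between tissues. Rgs4 fell from 5.72, 6.45 and 6.25 to 4.39 and 3.86, by 2.02 ± 0.24 log2 (limma, adjusted p = 0.000803), to readings under the 4.86 mark. With 1416286_at it fell by 4.13 ± 0.24 log2 (adjusted p = 5.25e-05 over probe sets, of which 4.31% passed).

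Kcnj8 rose from 4.47, 4.79 and 4.49 at E10.5 to 7.13 and 7.57 at E11.5. That was 2.77 ± 0.18 log2, or 6.81-fold (limma, adjusted p = 3.88e-05). Abcc9 rose from 3.70, 4.72 and 5.24 to 6.38 and 7.07, by 2.17 ± 0.39 log2 or 4.49-fold (adjusted p = 0.0101). Both arrays of E11.5 were above all 3 of E10.5 for each gene, and arrays did not overlap for 28.4% of genes tested. The Kcnj8 call held in each fit that left out 1 array (adjusted p 0.000143 to 0.000692), whereas that of Abcc9 was lost without medial E11.5 replicate 2 (adjusted p = 0.085). The second Abcc9 probe set, 1435751_at, gave 0.68 ± 0.23 log2 and missed the threshold (adjusted p = 0.183).

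Rgs16 rose as well, from 4.16, 4.10 and 4.29 to 5.11 and 5.17, by 0.95 ± 0.11 log2 (limma, adjusted p = 0.000959), and held in each fit that left out 1 array (0.0022 to 0.01). Its probe set 1426037_a_at rose by 2.29 ± 0.23 log2 to 5.53 and 6.14. Rgs2 differed by -0.10 ± 0.13 log2 (adjusted p = 0.783). Pdgfrb read 9.11 and 9.99 at E11.5, a difference of -0.04 ± 0.34 log2 (adjusted p = 0.976). Cspg4 read 6.24 and 6.16, above all 3 arrays of E10.5, an absence of overlap seen for 28.4% of genes tested, but its difference of 0.46 ± 0.21 log2 missed the threshold (adjusted p = 0.289). With the control-signal group as a term Cspg4 passed, at 0.61 log2 (limma, adjusted p = 0.00738), in a fit that called 2182 genes. In the main fit the family split, as Rgs4 fell where Rgs16 rose and Rgs2 was not called. The marker set split less clearly. Kcnj8 and Abcc9 were called higher and Pdgfrb and Cspg4 were not called, but Cspg4 also read higher.

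The array scale bears on all of these calls. On the values as deposited no member passed in either comparison. The deposited Rgs5 readings of the 2 arrays of low median were 6.86 at E10.5, against 9.84 and 9.83 on the other 2 arrays, and 4.18 at E11.5, against 6.83 on the other. By the readings of 45 probe sets for added control RNA, the arrays were divided into 4 groups, a number set in advance. The 2 arrays of low median form a group of their own, and the E14.5 array forms another. Differences can be read within the groups. Between tissues at E10.5, Rgs5 differed by 5.46 and 5.46 log2 in the 2 groups that hold both, Rgs4 by 2.17 and 1.76, and Rgs2 by -0.75 and -0.46. Between E11.5 and E10.5, Rgs5 differed by -2.60 and -2.49 log2, Rgs4 by -2.60 and -1.33, Rgs16 by 1.07 and 0.95, Kcnj8 by 2.78 and 2.66, and Abcc9 by 2.35 and 2.67. For these genes the direction within the groups was that over all arrays. Members that were not called split. Between tissues, Kcnj8 (0.78 and 0.57), Cspg4 (0.08 and 0.26) and Rgs16 (-0.16 and -0.05) kept their direction, as did Cspg4 between the stages (0.71 and 0.56). Pdgfrb did not, with -0.26 and 0.11 log2 between tissues and 0.17 and 0.20 between the stages. Rgs2 differed by 0.05 and -0.28 between the stages. Each difference within a group sets 1 array against 1 or 2. Abcc9 differed by 0.15 and 0.72 log2 between tissues, against 0.02 over all arrays.

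The E9.7 and E14.5 arrays extend these series without a test. In medial tissue, Rgs4 read 4.11 at E9.7, so that Rgs4 was 2.03 log2 higher at E10.5. Rgs5 and Rgs4 were the 2 members with all E10.5 arrays at least 2-fold above E9.7, against 0.977% of 11972 genes in either direction. The medial E10.5 arrays chose Rgs5, and of the arrays compared Rgs4 reached the mark on those alone. Rgs16 and Kcnj8 were under the mark on all arrays compared and could not be counted. The count therefore supports nothing by itself. Kcnj8 read 4.30 and Abcc9 4.14 at E9.7, both dim. Of the medial stages before E14.5, Rgs4 was above the mark at E10.5 alone on its main probe set, while Rgs5 was above it at each.

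At E14.5, Abcc9 read 8.35, which is 1.63 log2 above E11.5, and on the main probe sets it was the only member at least 2-fold beyond both E11.5 arrays, against 14.6% of 12566 genes. Other probe sets of Rgs4, Rgs2, Rgs16, Cspg4 and Abcc9 also read at least 2-fold above both, so this count depends on the probe set. Rgs4 on 1416286_at read 5.81, which is 2.89 log2 above E11.5. Rgs2 read 9.16 on 1419248_at and 8.26 on 1447830_s_at, 1.85 and 1.40 log2 above. Kcnj8 read 7.43, within the E11.5 range. Cspg4 read 7.01 and was 0.81 log2 above E11.5, while its second probe set, 1423341_at, reached 7.48 and was 2.45 log2 above it. Pdgfrb read 10.51, its highest value. On its main probe set Rgs2 read 8.24. Rgs16 read 4.31 on its main probe set, which was 0.82 log2 below E11.5, while its other 2 probe sets were higher at E14.5, by 0.94 and 1.30 log2, so no direction can be given for it. Skeletal muscle genes also stood at their highest in that tongue piece, with a mean over 11 genes of 11.18 log2 against 7.50 to 7.98 at E11.5 and 4.35 to 4.42 at medial E10.5. Their part in the levels of the channel genes was not tested.

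The G protein pathway around these members was followed in 3 lists, and their counts stand against 4.63% of all genes called between tissues and 6.92% between the stages. With 6 to 9 genes a list, counts of 0 to 3 say little of the list. Of 17 other Rgs genes, 15 were measured and 6 were bright enough to test, and 0 of 6 passed between tissues or between E11.5 and E10.5 with limma (1 and 0 at an unadjusted p of 0.05). Their median difference was -0.13 log2 between tissues, against -0.01 for all genes, and -0.02 against 0 between the stages. The difference furthest from 0 between tissues was that of Rgs14, -0.64 ± 0.24 log2 (limma, adjusted p = 0.214). Of 9 Gi and Gq alpha subunits, 7 were tested and 0 passed in either comparison (1 in each at an unadjusted p of 0.05). Gnai1 came closest, with -0.37 ± 0.11 log2 between tissues (adjusted p = 0.118).

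Of 13 measured receptors, 9 were tested. Those listed couple to Gi or Gq, except Ackr3, an atypical chemokine receptor, which was tested and was not called in either comparison. Ednrb, an endothelin receptor, was higher in medial tissue at E10.5 by 1.12 ± 0.20 log2 (limma, adjusted p = 0.0122), and S1pr3, a receptor of sphingosine phosphate, was lower, with a difference of -0.60 ± 0.13 log2 (adjusted p = 0.0361). The Ednrb call was lost without lateral replicate 2 or 3 (adjusted p = 0.0665 and 0.0549). That of S1pr3 was lost in 5 of 6 such fits, with 0.0867 and 0.107 without medial replicates 1 and 2, and 0.0959, 0.179 and 0.0915 without lateral replicates 1, 2 and 3. From E10.5 to E11.5, 3 of the 9 rose: Ednrb by 2.59 ± 0.22, Cxcr4, a chemokine receptor, by 2.41 ± 0.21, and S1pr3 by 1.34 ± 0.15 log2. Ednrb therefore rose over the interval that ended with the lower Rgs5 readings. Without lateral replicate 2 or 3, 0 of 9 receptors passed between tissues.

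The wider set of pericyte genes split between the tissues. Here and for the lists below, counts of the main fit stand against 4.63% of all genes called between tissues and 6.92% between the stages. The share of all genes at an unadjusted p is not given. Of 20 listed genes, 18 were measured and 11 tested, 2 were higher and 2 lower in medial tissue, and the median was -0.11 log2 against -0.01 for all genes. Ebf1, a transcription factor, read 3.92, 3.84 and 3.41 in medial and 6.61, 6.28 and 6.47 in lateral tissue, a difference of -2.73 ± 0.17 log2 (limma, adjusted p = 7.43e-05). Foxc1, a forkhead factor, differed by -1.73 ± 0.28 log2 (adjusted p = 0.00782). Foxf2, another forkhead factor, was higher by 2.06 ± 0.18 log2 (adjusted p = 0.000315). Des, which encodes the filament protein desmin, was higher by 0.84 ± 0.16 log2 (adjusted p = 0.0177), and its call was lost without medial replicate 3 (0.053), lateral replicate 1 (0.0755) or lateral replicate 3 (0.0799). Foxc1 and Foxf2 are also known in arch mesenchyme, and Des in muscle.

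Genes that act in pericyte recruitment and passed between tissues at E10.5 were higher on the medial side. Of 15 such genes tested, 4 were higher and 0 lower (limma, 8 and 0 at an unadjusted p of 0.05), with a median of 0.47 log2. Of all genes tested, 2.82% were higher and 1.8% lower. The PDGF ligand genes Pdgfb and Pdgfa differed by -0.28 ± 0.26 and -0.12 ± 0.14 log2 and were not called. Jag1, a Notch ligand, was higher by 1.1 ± 0.16 log2 (limma, adjusted p = 0.0037) and held in each fit that left out 1 array. Angpt1, the ligand of the endothelial receptor Tek, Acvrl1, a receptor of the TGF-beta family, and Tek itself were higher by 0.88, 0.81 and 0.69 log2. Each of these 3 lost its call in several such fits: Angpt1 and Tek without medial replicate 2 or 3 or any 1 lateral array (adjusted p up to 0.178 and 0.156), and Acvrl1 without medial replicate 1 or 2 or lateral replicate 2 or 3 (up to 0.144). The count fell to 1 without medial replicate 2 or lateral replicate 2 or 3, and to 2 without medial replicate 3 or lateral replicate 1. Of 14 endothelial markers, 2 were higher and 0 lower (6 and 0 unadjusted), with a median of 0.31 log2, and their mean over the list was 7.02 to 7.18 on medial and 6.74 to 6.77 on lateral arrays. The endothelial count was 1 without medial replicate 3 or lateral replicate 1 or 3, and 0 without lateral replicate 2. Smooth muscle genes passed in 0 of 8 (3 higher and 2 lower unadjusted), with a median of 0.26 log2, and in 1 without medial replicate 1. With the control-signal group as a term, 4 smooth muscle genes were higher and 1 lower, and 5 endothelial markers were higher and 0 lower. These counts stand against a larger background, as that fit called 1254 genes, 727 higher and 527 lower, against 554 in the main fit. The part of these endothelial levels in the medial signal of Rgs5 was not tested.

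**Figure D4:**
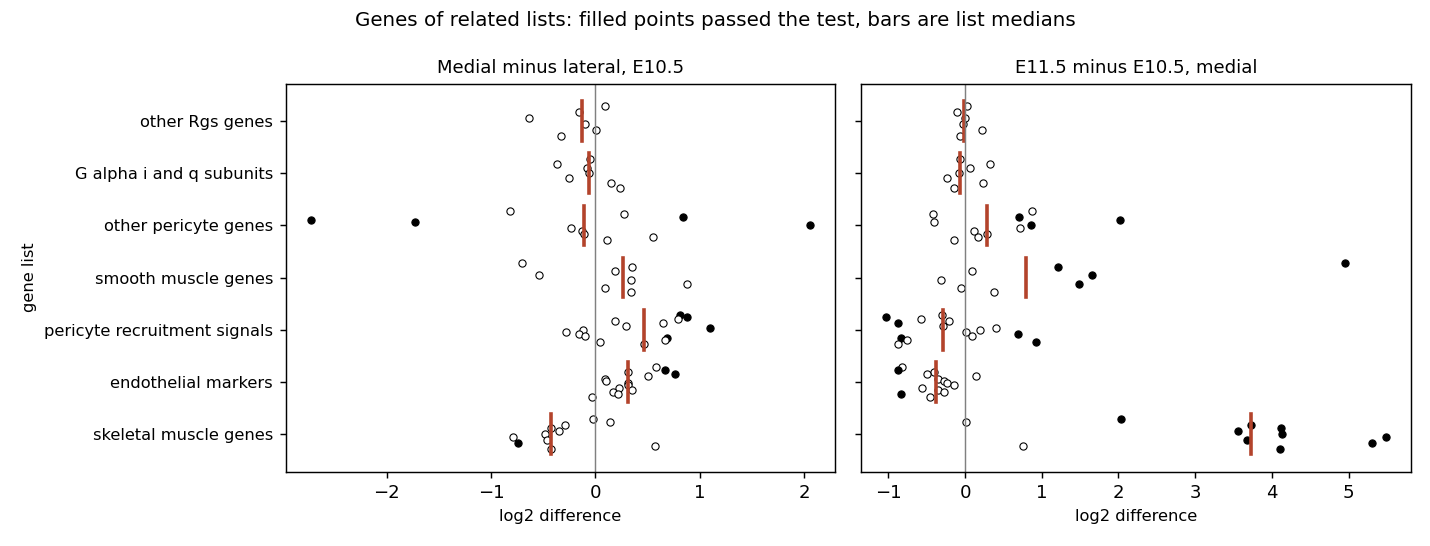
Log2 difference (horizontal axes, which differ in range) of each gene tested in 7 related gene lists (vertical axis) between medial and lateral tissue at E10.5 (left) and between medial E11.5 and E10.5 (right). Filled points passed an adjusted p of 0.05, open points did not, and red bars are list medians. No gene of the 2 upper lists passed, and on the right 4 smooth muscle and 9 skeletal muscle genes lie to the right of 0 and passed.

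From E10.5 to E11.5, when Kcnj8 and Abcc9 rose, some other mural genes rose and others were not called. Of 13 smooth muscle genes, 8 were tested, and Myh11 and Cnn1 were among those too dim to test. Of the 8, 4 rose and 0 fell, against 4.32% and 2.6% of all genes tested, with a median of 0.79 log2 against 0 for all genes. Tagln, Lmod1, Mylk and Smtn were not called (0.38, 0.09, -0.31 and -0.05 log2). Acta2, smooth muscle actin, rose from 6.85, 6.34 and 7.03 to 11.49 and 11.89, by 4.95 ± 0.21 log2 (limma, adjusted p = 5.85e-06). The probe set that represents Acta2 has the ending _s_at, so it may detect more than 1 transcript. Over 9 alternative ways of processing, the Acta2 difference ran from 1.78 to 5.21 log2, and Acta2 passed in 8 of them. The size of this rise therefore depends on the processing. Myl9, a myosin light chain, rose by 1.65 ± 0.20, Myocd, the cofactor myocardin, by 1.48 ± 0.25, and the integrin gene Itga8 by 1.21 ± 0.17 log2. The Myocd call was lost without medial E11.5 replicate 2 (adjusted p = 0.0626). Acta2 is also expressed in early skeletal muscle. Myocd was under 4.86 on every E10.5 array, so it was tested only through the E11.5 arrays, where it is high.

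Of the 11 other pericyte genes tested, 3 rose and 0 fell, with a median of 0.29 log2. Ebf1 rose by 2.02 ± 0.19 log2 (limma, adjusted p = 0.00029). Foxf2 and Des rose by 0.86 and 0.70 log2. Foxf2 lost its call without either E11.5 array (adjusted p = 0.0751 and 0.161), and Des without medial E10.5 replicate 1 or 2 (0.102 and 0.146) or medial E11.5 replicate 2 (0.225). Without the latter array 1 of the 11 rose. Of the 15 recruitment genes, 2 rose and 3 fell, with a median of -0.29 log2. Tgfbr2, a TGF-beta receptor, rose by 0.93 ± 0.17 log2, and Tek fell by 0.84 ± 0.17 log2. Tgfbr2 lost its call without medial E11.5 replicate 2 (adjusted p = 0.0733), and Tek without medial E11.5 replicate 1 (0.101) or without both arrays of low median (0.0587). Leaving out medial E10.5 replicate 2 or 3 or medial E11.5 replicate 1 brought the recruitment count to 2, and leaving out medial E11.5 replicate 2 to 3. With the control-signal group as a term, 5 of the other pericyte genes rose and 1 fell, and 2 recruitment genes rose and 7 fell. That fit called 2182 genes, 1176 higher and 1006 lower, against 828 in the main fit, so the share of 6.92% does not apply to it.

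Endothelial markers that passed in that interval ran the other way. Of 14 tested, 0 rose and 2 fell (limma, 0 and 7 at an unadjusted p of 0.05), with a median of -0.38 log2, and the list mean went from 7.02 to 7.18 at E10.5 to 6.56 to 6.75 at E11.5. Cldn5, a tight junction gene, fell by 0.87 ± 0.12 log2 (limma, adjusted p = 0.00253). Sox17, an endothelial transcription factor, fell by 0.83 ± 0.18 log2, and lost its call without either E11.5 array (adjusted p = 0.136 and 0.0616). With the control-signal group as a term, 0 endothelial markers rose and 5 fell, in the fit that called 2182 genes.

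Skeletal muscle genes showed the largest shift of the lists, with 9 of 11 higher and a median of 3.73 log2. Among them Tnnt3, Tnnc2, Myh3 and Ttn were under 4.86 on every E10.5 array and were tested only through the E11.5 arrays. The filter thus favoured a rise, and the count and median support nothing by themselves. Myog, a myogenic regulator, rose by 5.48 ± 0.23 and Tnnt1, a troponin, by 5.30 ± 0.17 log2. Macrophage markers rose in 4 of 6, among them Mrc1, a mannose receptor, by 1.68 ± 0.17 log2. These shifts moved with the rise of Kcnj8 and Abcc9, and their part in it was not tested. Without both arrays of low median, 4 of 8 smooth muscle and 9 of 11 skeletal muscle genes rose, 2 of 11 other pericyte genes rose, and 2 of 14 endothelial markers fell.

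No tested gene beside the 2 neighbouring pairs passed in either comparison. Nuf2, a kinetochore gene on the other side of Rgs5, differed by 0.20 ± 0.15 log2 between tissues (limma, adjusted p = 0.569) and by -0.40 log2 between E11.5 and E10.5 (adjusted p = 0.255). Beyond Rgs4, Hsd17b7, an enzyme of sterol synthesis, differed by 0.37 log2 between tissues (adjusted p = 0.293). Ldhb, a lactate dehydrogenase subunit next to Kcnj8, and Cmas, a sialic acid synthetase next to Abcc9, differed by 0.20 and 0.15 log2 between the stages, where Kcnj8 and Abcc9 rose, and neither passed.

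Epithelial markers that passed ran in the direction of Rgs5 and Rgs4 in both comparisons, as did the few endothelial markers that passed. Most arch mesenchyme genes that passed did so too, with exceptions in both comparisons. Of 12 epithelial markers, 7 were higher and 0 lower in medial tissue at E10.5 (8 and 0 unadjusted, limma), with a median of 0.74 log2, and 0 rose and 10 fell from E10.5 to E11.5, with a median of -1.13 log2. The mean of the list was 7.73 to 7.86 log2 on medial E10.5 arrays, 7.10 to 7.17 on lateral E10.5 arrays and 6.85 to 6.86 on medial E11.5 arrays. Without medial E11.5 replicate 1, 6 of the 12 fell. Of 13 arch mesenchyme genes, which all were bright enough to test, 3 were higher in medial tissue and 1, Dlx5, was lower (median 0.26 log2). From E10.5 to E11.5, 8 fell and 2, Pdgfra and Foxd1, rose (median -0.80 log2). Their list mean was 9.52 to 9.69 on medial and 9.36 to 9.42 on lateral E10.5 arrays, and 8.31 to 8.39 at medial E11.5. The part of these cell types in the Rgs5 and Rgs4 differences was not tested. Red cell genes passed in 0 of 7 between tissues (0 unadjusted), and 1 fell between the stages, a count of 0 without medial E11.5 replicate 2 or any 1 medial E10.5 array and of 2 without medial E11.5 replicate 1. Of 5 nerve and glia genes, 1 was higher and 1 lower between tissues, and only the lower one passed without medial replicate 1 or any 1 lateral array.

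The genes whose course over the 6 groups was most like that of Rgs5 were ranked by the root mean square difference between centred group means, over 11521 genes. The first 5 were Ndnf, a secreted neuron-derived factor (0.91), Hand1, a distal arch transcription factor (1.09), Gadd45g, a stress and growth arrest gene (1.09), Alx1, a homeobox factor of head mesenchyme (1.11), and Pmp22, a myelin membrane protein (1.16). All 5 read higher in medial than in lateral tissue at both stages that have both. Between E11.5 and E10.5 they differed by -0.18, -1.0, -0.66, -1.17 and 0.60 log2 in the same order, against -2.67 for Rgs5, so none of the 5 had a drop of that size. Rgs4 came at rank 58, with 1.62. Ranked instead by Pearson correlation over the 11 arrays, 1 of these 5, Gadd45g, was again among the first 5. The likeness is a description over 6 groups that include the values which chose Rgs5.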

How the data were processed

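Signals were measured on 11 Affymetrix arrays. The deposited values are log2 signals made by the authors with Affymetrix Expression Console 1.1, per the submitters' processing notes. The summarization algorithm is not given in the sources used here, and the log base was inferred from a range of 0.0887 to 14.5. Values were quantile normalized with limma 3.58.1 in R 4.3.3. Of 45101 probe sets, 34958 had 1 symbol in the platform annotation, and each of 18194 genes was represented by its brightest probe set. Genes at or above the 50th percentile on at least 2 of the 8 arrays of groups with replicates were tested (11968 genes, all 8 members among them). limma was fitted over the 6 groups (5 residual degrees of freedom), with Benjamini-Hochberg adjustment over all genes and a threshold of 0.05. Listed genes that passed the filter come from the same fit, and some of them passed it through their highest group alone. Where a side had 1 array there was no test, and a gene was counted if that array differed at least 2-fold from each array opposite. Such a gene also had to reach the filter level on at least 1 array compared. On simulated data, 79.1% of 2-fold changes were recovered between tissues and 70.1% between E11.5 and E10.5. Of 1.5-fold changes, 23.9% and 28.4% were recovered, so most changes of that size are missed. In the same data 10 and 11 unchanged genes were called. The members, gene lists and tests were chosen with earlier results of these data known. Genes named from a list are up to 4 per direction by adjusted p. The number of arrays limits the precision.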

Additional observations from a re-analysis of the deposited data

Results flagged for a closer look

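The difference of Rgs2 between medial and lateral tissue had opposite signs at 2 stages. It was 0.38 log2 on the single arrays of E9.7 and -0.50 log2 on 3 arrays a side at E10.5. Every E10.5 medial array was below every lateral one, while the medial E9.7 array was above the lateral one. At E10.5 arrays did not overlap for 25% of genes tested. The difference between the stages was not tested.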

How the results depend on the processing

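Rgs4 passed in 10 of 11 alternatives in each comparison. Kcnj8 passed in 9 of 10 between E11.5 and E10.5, and in 4 of 10 between tissues, where the main fit did not call it. These alternatives reuse the same arrays and, except for the fit without it, a filter on dim genes. In the main fit each gene passed that filter through its highest group alone, so these counts add no support. On the values as deposited, 2 genes passed between tissues and 1 between E11.5 and E10.5, and 0 members in either. Rgs5 differed there by 4.24 and -3.33 log2. Differences between tissues turned to -1.07 (Cspg4), -0.43 (Kcnj8), -1.0 (Abcc9), -0.36 (Cldn5), -0.22 (Emcn), -0.30 (Des), -0.34 (Acvrl1), -0.45 (Tek), -0.26 (Angpt1) and -0.06 (Ednrb), and that of Cspg4 between stages to -0.17. From E9.7 to E10.5, 57 genes and 0 members were counted in medial tissue and 0 members in lateral tissue, and 5 members from E11.5 to E14.5. The cause was not tested. When arrays were instead centred on their medians, which moved the median of all genes between tissues from -0.01 to 0.11, 358 genes and 1 member passed between tissues and 455 genes between stages, with 1, 0 and 4 members counted in the untested comparisons of E10.5 and E14.5. Without the filter 1 member passed between tissues. With the mean of the probe sets Rgs5 differed by 3.58 and -2.38 log2, Pdgfrb between stages by 0.01, and 0 and 2 members were counted from lateral E9.7 and to E14.5. In the fit over probe sets, Rgs5 differed by 3.92, 3.68 and -2.90, Pdgfrb by 0.04 and 0.06, and Rgs2 between stages by 0.08. With only the groups compared, 482 genes passed between stages.

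Whether replicate numbers pair the tissues was not settled. Correlations of deviations were 0.128, -0.294 and 0.478, and replicates 1 and 3 matched their own number best while replicate 2 did not. With the replicate number as a block 779 genes passed between tissues, against 554 in the main fit, and 868 between stages. Pdgfrb between stages was then 0.08 log2. Without both arrays of low median it was 0.06, and with the control-signal group as a term 0.12, where 1254 and 2182 genes passed. At an adjusted p of 0.01, 300 genes and 1 member passed between tissues and 419 genes between stages. At 1.5-fold, 574, 419, 617 and 3629 genes were counted in the 4 untested comparisons, and 5 members at E14.5.

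Leaving out 1 array at a time gave 308 to 528 genes and 1 to 2 members between tissues, 597 to 801 genes and 3 to 4 members between stages, 134 to 202 and 174 to 270 genes from medial and lateral E9.7, and 2192 to 2664 genes and 2 members at E14.5. Over these fits Abcc9 between tissues ran from -0.33 to 0.44, Cspg4 from -0.10 to 0.21 and Pdgfrb between stages from -0.48 to 0.40. Abcc9 turned to -0.07, -0.33 and -0.02 without medial replicate 2, medial replicate 3 or lateral replicate 3, and Cspg4 to -0.10 and -0.08 without medial replicate 3 or lateral replicate 1. Pdgfrb turned to 0.08, 0.18 and 0.40 without medial E10.5 replicate 2 or 3 or medial E11.5 replicate 1. These 3 genes were not called in either direction in those fits. Signal over background limits the dim genes most: Kcnj8, Abcc9, Rgs4 and Rgs16 were near or under 4.86 in several groups.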
